A study of Mus musculus with 12 samples.

Results

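The RNAs described here are 9 long noncoding RNAs chosen by symbol from the deposited count table: Malat1, Meg3, Miat, Rian, Mirg, Neat1, Snhg11, Snhg14 and Peg13. All 9 were found among the 24421 genes of the table, and all 9 passed the filter on low counts that left 13065 genes to be tested. The samples were 12 hippocampi of mice 2 months old, 3 of each of 4 genotypes, and all mice were given BrdU, which labels newly made DNA. WT mice carried neither change. The 5xFAD line is a model of inherited Alzheimer's disease whose mutant human transgenes are driven in neurons by a Thy1 promoter. The mice labelled p75NTRko are named for loss of Ngfr, which encodes the p75 neurotrophin receptor, and 5xFAD/p75NTRko combines both. The strain background and the knockout allele are not given in the sources used here, nor whether replicates were littermates.

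Nuclear long noncoding RNAs are made like messenger RNAs, but many stay at the site of their synthesis or in nuclear bodies and encode no known protein. Malat1 gathers in nuclear speckles, which hold splicing factors, and Neat1 is the scaffold around which paraspeckles form. Meg3, Rian and Mirg are transcribed from the maternal copy of the imprinted Dlk1-Dio3 region, where they host small nucleolar RNAs and microRNAs. Snhg14 is a paternally expressed host of small nucleolar RNAs that runs over Ube3a in antisense, and in neurons it silences the paternal Ube3a copy. Peg13 is an imprinted, paternally expressed RNA inside Trappc9, Miat is a nuclear RNA of neurons that binds splicing factors, and Snhg11 is a host gene of small nucleolar RNAs that is rich in brain.

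The libraries were made from 3′ ends primed with oligo(dT), so a count carries no length term, and levels are given as CPM, counts scaled to a common library total. Such priming can also start at A-rich stretches inside a transcript, so reads per transcript can differ between genes and an order of genes by CPM is an order of reads. In the GENCODE M21 annotation (build GRCm38) Malat1 is a single exon of 6983 bases on the minus strand of chromosome 19 (5795690 to 5802672). Mature Malat1 is known to end in a triple helix rather than a poly(A) tail. The only run of at least 10 A in the annotated exon lies at bases 6674 to 6685, with 298 annotated bases after it. Where the mature RNA ends relative to this run was not tested. That stretch is shown because an oligo(dT) primer can find A bases there, with the run in capitals and 60 bases on each side:
Malat1 transcript: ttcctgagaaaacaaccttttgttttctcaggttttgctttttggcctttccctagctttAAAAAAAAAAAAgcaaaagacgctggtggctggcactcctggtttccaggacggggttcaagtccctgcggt
The longest annotated Meg3 transcript (14548 bases) has 6 such runs, Rian and Snhg14 have 1 each, and Miat, Mirg, Neat1, Snhg11 and Peg13 have 0. From which run or end the reads came was not tested.

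Meg3 lies on the plus strand of chromosome 12 (109541001 to 109571726), upstream of Rian (109603940 to 109661716) and Mirg (109729764 to 109749460). One of its 2 promoter windows is shown because Meg3 had the highest mean CPM of the tested genes and lies at the head of this row of maternally expressed RNAs. The window of 300 bases comes from RefSeq (GRCm38.p6, chr12:109540746-109541045, plus strand), and the capitals mark a cyclic AMP response element (CRE) and a TATA box:
Meg3 promoter: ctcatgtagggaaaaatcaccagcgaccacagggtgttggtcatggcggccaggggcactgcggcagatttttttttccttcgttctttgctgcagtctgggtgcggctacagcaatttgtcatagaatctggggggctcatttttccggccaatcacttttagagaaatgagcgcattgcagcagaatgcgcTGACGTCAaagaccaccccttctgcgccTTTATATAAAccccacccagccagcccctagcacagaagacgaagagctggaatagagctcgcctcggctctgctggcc
On both strands, TGACGTCA (the CRE) is found in 1.79% of 32851 RefSeq promoter windows of this length. TATAAA (the TATA box) is found in 13.6%, and in the Meg3 window it occurs 2 times, once on each strand with the matches overlapping. Another motif, GGGCGG (the GC box, in 35.7% of windows), is not in this window. Windows were found for 7 members. The other Meg3 window and those of Rian, Mirg, Malat1, Snhg11 and Snhg14 hold none of the 3 motifs, and that of Miat holds 1 GC box. A match is a description of the letters only.

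Depth was 4316739 to 6683613 reads assigned to genes per library, and 3 counts correspond to 0.445 to 0.689 CPM. The targeted gene went against its label: Ngfr was at 0.166 to 1.95 CPM in WT, 0.751 to 1.70 in 5xFAD, 5.95 to 7.79 in the libraries labelled p75NTRko and 6.33 to 10.5 in those labelled 5xFAD/p75NTRko. Whether the counted Ngfr end lies outside the deleted part was not tested, so directions drawn from these labels are directions between libraries so labelled. Thy1, whose sequences drive the transgenes, was at 1596 to 4019 CPM in carriers of the transgenes and at 688 to 940 in the others. Xist, the RNA of the inactive X, was high in all WT and 5xFAD/p75NTRko libraries and in p75NTRko replicate 1. It was low in all 5xFAD libraries and in p75NTRko replicates 2 and 3, so 5xFAD and WT differ in Xist throughout, and genotype and Xist class cannot be told apart between them. Hippocampal markers (8 genes of the dentate gyrus and CA fields) summed to 580 to 752 CPM, lower in WT than in 5xFAD and p75NTRko without overlap, and neuronal markers (10 genes) to 12673 to 16449 CPM, with none at 0. In whole tissue, fewer cells of a type and less RNA per cell cannot be told apart, and whether these RNAs came from neurons was not tested.

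The 9 RNAs together took 1.09% to 1.66% of assigned reads. Their share was highest in 5xFAD (1.55% to 1.66%) and lowest in the libraries labelled p75NTRko (1.09% to 1.18%), with WT at 1.22% to 1.39% and 5xFAD/p75NTRko at 1.38% to 1.41%. They span a wide range of read levels. Meg3 was first of the 13065 tested genes by mean level, at 8361 CPM. Symbols starting mt-, those of mitochondrially encoded genes, took 0% of assigned reads in every library. Whether the counted annotation held these genes is not given in the sources used here, so ranks are among the genes counted. Malat1 ranked 16 (2993 CPM) and Snhg11 ranked 41 (1563 CPM). Peg13 ranked 630 (289 CPM), Miat 788 (247 CPM) and Neat1 1537 (145 CPM). Mirg ranked 4428 (44.6 CPM), Snhg14 ranked 5362 (33.5 CPM) and Rian ranked 8800 (10.6 CPM), so Rian lies below the median tested gene. Neighbours in this order overlap over the 12 libraries for Malat1 and Snhg11 (1759 to 4759 and 1291 to 1929 CPM), Peg13 and Miat (211 to 387 and 210 to 292 CPM), and Mirg and Snhg14 (29.7 to 55.1 and 22.6 to 47.0 CPM). The other neighbours do not overlap. Rian rested on 31 to 99 counts per library, Snhg14 on 135 to 277, and Meg3 on 30418 to 57380.

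**Figure D1:**
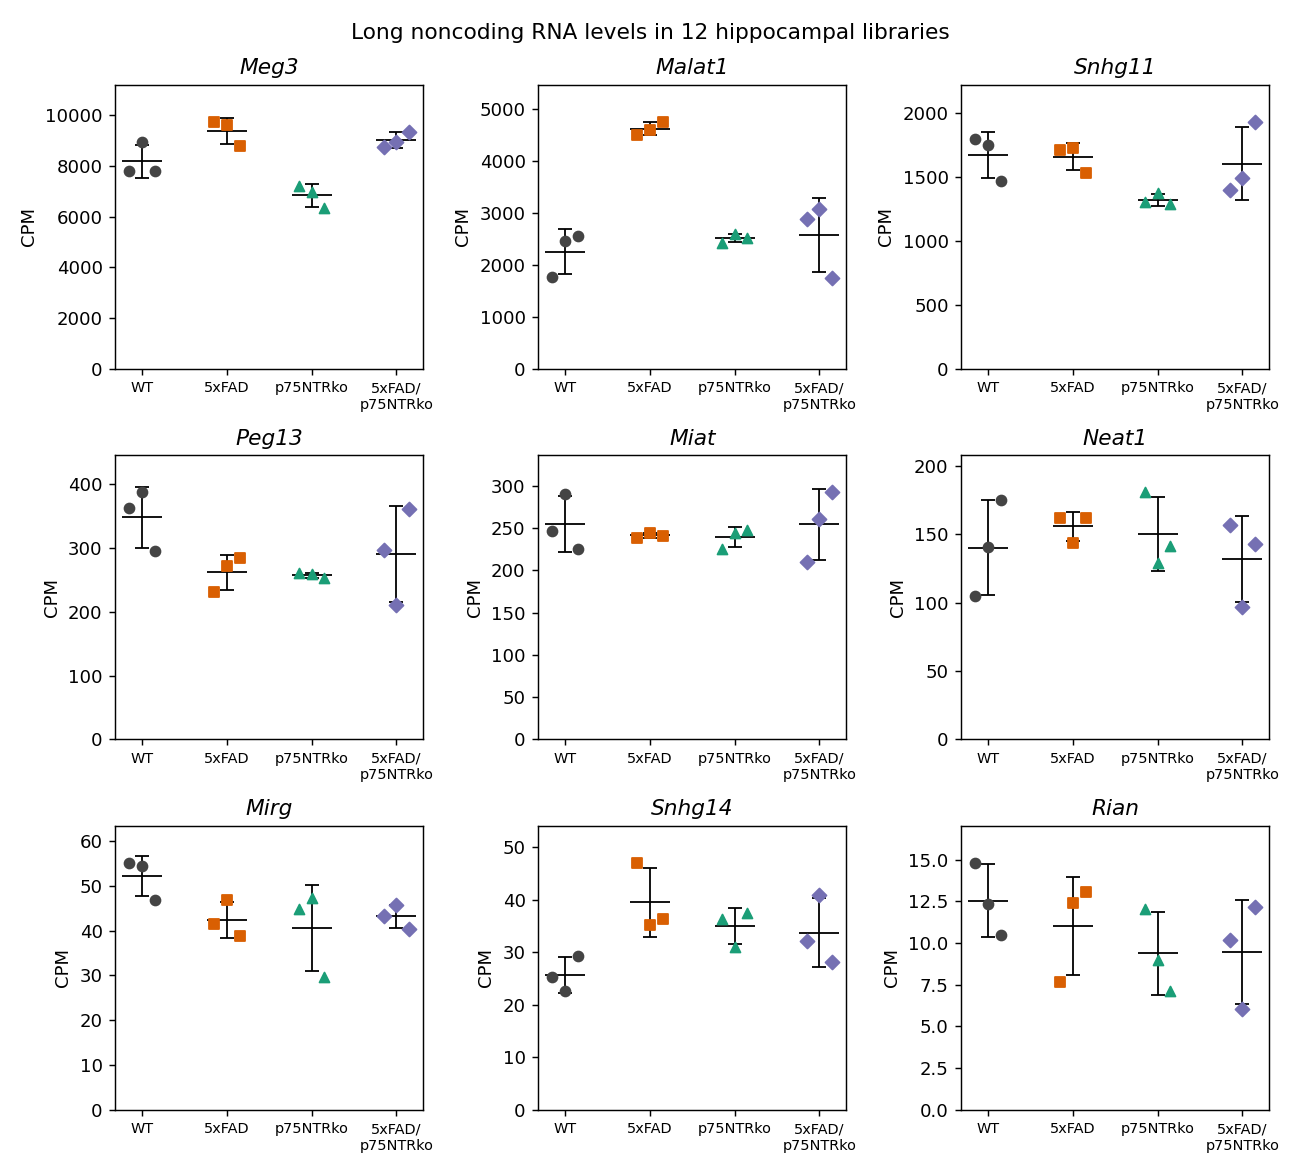
Level of each of the 9 RNAs in CPM (vertical axes, each from 0) by genotype (horizontal axes); points are single libraries, long bars the mean of 3 libraries and whiskers the SD. The 3 5xFAD libraries stand at 4511 to 4759 CPM for Malat1, above the 1759 to 3090 CPM of the other 9 libraries.

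Malat1 had the widest range over the 12 libraries, 1.44 on the log2 scale. It was at 1761, 2458 and 2551 CPM in WT and at 4511, 4605 and 4759 in 5xFAD. In the libraries labelled p75NTRko it was at 2435, 2589 and 2520 CPM, and in 5xFAD/p75NTRko at 2882, 3090 and 1759. All 3 5xFAD libraries lie above the other 9, and the remaining genotypes overlap one another. Means were 2257 ± 432 CPM in WT (SD, n = 3), 4625 ± 125 in 5xFAD, 2515 ± 77.6 in p75NTRko and 2577 ± 716 in 5xFAD/p75NTRko. The spread between replicates was 2.70% of the mean in 5xFAD and 27.8% in 5xFAD/p75NTRko, where replicate 3 is the lowest of all libraries.

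In edgeR's quasi-likelihood test over all 13065 genes, with Benjamini-Hochberg adjustment, Malat1 was 2.05-fold higher in 5xFAD than in WT (log2 fold change 1.04, SE 0.175). Its adjusted p of 0.0508 missed the threshold of 0.05, and it ranked 8 of all genes by p. In 5xFAD/p75NTRko it was lower than in 5xFAD with -0.84 on the log2 scale (SE 0.174, adjusted p = 0.204), which passed with DESeq2 (0.00205) and with no filter on low counts (0.0156). The test of whether the transgene's effect differed between receptor labels gave -1.0002 (SE 0.246, adjusted p = 0.329), and that of any difference among the 4 genotypes gave an adjusted p of 0.0606 and passed in 6 of 21 alternatives. The call for 5xFAD against WT depends on the processing. Of 16 alternatives it passed in 4: DESeq2 (adjusted p = 1.11e-05), no filter on low counts (0.00107), a fit of these 2 genotypes alone (0.0206) and the fit without WT replicate 3 (0.0418). It did not pass in the others, where the adjusted p reached 0.949, and the log2 fold change lay between 0.53 and 1.13 over all 16. Within the p75NTRko label the 2 libraries with low Xist stood at 2520 and 2589 CPM of Malat1 and the one with high Xist at 2435. With the Xist class in the model the log2 fold change was 0.97, with an adjusted p of 0.949. That term rests on these p75NTRko libraries alone, since no other genotype holds both classes. It therefore cannot tell genotype from Xist class between 5xFAD and WT, and the part of Xist class was not tested.

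Neat1, the neighbour of Malat1 on the minus strand of chromosome 19 (5824708 to 5845478), did not separate 5xFAD from the other genotypes. It was at 105, 141 and 175 CPM in WT, and at 162, 143 and 162 in 5xFAD. Libraries labelled p75NTRko held 181, 129 and 142 CPM, and the combined genotype 157, 96.9 and 143. All 4 genotypes overlap, and the test of any difference among them gave an adjusted p of 0.842. Neat1 has 4 annotated transcripts in GENCODE M21, and which of them these counts came from was not tested. Across the 12 libraries the log2 CPM of Malat1 and Neat1 had Pearson's r = 0.279 (permutation p = 0.383, adjusted over 36 pairs 0.627) and Spearman's rho = 0.189 (permutation p = 0.557), with r = 0.226 without the 2 libraries farthest from the median of Malat1. Of 16 listed paraspeckle proteins, 0 passed the adjusted threshold in any genotype comparison. Rbm12, an RNA-binding protein of that list, had the smallest p, with a log2 fold change of 0.38 in 5xFAD against WT (SE 0.140, edgeR adjusted p = 0.280). Sfpq, a core paraspeckle protein, was next, at -0.23 in 5xFAD/p75NTRko against p75NTRko (SE 0.0918, edgeR adjusted p = 0.713). Of 16 nuclear speckle proteins 0 passed as well, and their median log2 fold change in 5xFAD against WT was 0.07, against -0.0036 over all genes. Rbm25, a splicing regulator, was at 303 ± 24.8 CPM in WT and 363 ± 8.92 in 5xFAD (SD, n = 3), with ranges that do not overlap and an edgeR adjusted p of 0.280. Acin1, a splicing-associated protein, had a log2 fold change of 0.30 in the same comparison (SE 0.117, edgeR adjusted p = 0.304).

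Meg3 was at 7813, 8939 and 7800 CPM in WT, and at 9742, 9622 and 8804 in 5xFAD. It was at 7196, 6994 and 6333 CPM in the libraries labelled p75NTRko, and at 8758, 8970 and 9363 in 5xFAD/p75NTRko. The p75NTRko libraries are the 3 lowest of the 12 and overlap no other genotype. The largest Meg3 difference by p was between 5xFAD/p75NTRko and p75NTRko, at 0.40 on the log2 scale (SE 0.0906, edgeR adjusted p = 0.374). It passed with DESeq2 (0.0104) and with the share of reads outside annotated features in the model (0.0334). In the latter fit share and transgene cannot be told apart. Against WT, Meg3 stood at -0.26 in p75NTRko (SE 0.0905, edgeR adjusted p = 0.344) and at 0.20 in 5xFAD (SE 0.0905, edgeR adjusted p = 0.354).

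Rian and Mirg, the downstream transcripts of the Meg3 region, were not lowest in all p75NTRko libraries as Meg3 was. Rian was at 14.8, 12.3 and 10.5 CPM in WT, and 7.64, 12.4 and 13.0 in 5xFAD. Libraries labelled p75NTRko held 12.05, 8.97 and 7.14 CPM, and the combined genotype 10.2, 6.04 and 12.1. Its genotypes all overlap. Mirg was at 55.1, 54.5 and 47.0 CPM in WT, and 41.4, 46.8 and 38.9 in 5xFAD. Libraries labelled p75NTRko held 44.9, 47.4 and 29.7 CPM, and the combined genotype 43.3, 45.8 and 40.5. WT was highest for Mirg, though its lowest library lies below the highest of p75NTRko. The log2 fold change of Mirg was -0.37 in p75NTRko against WT (SE 0.153, edgeR adjusted p = 0.385). Over the 12 libraries, Meg3 and Rian had Pearson's r = 0.149 of log2 CPM (permutation p = 0.644, adjusted over 36 pairs 0.812) and rho = 0.154. Meg3 and Mirg had r = 0.295 (permutation p = 0.357, adjusted 0.613) and rho = -0.0769, and Rian and Mirg had r = 0.454 (permutation p = 0.141, adjusted 0.432) and rho = 0.308, with r = 0.338 without the 2 libraries farthest from the median of Rian. Without p75NTRko replicates 2 and 3, the libraries farthest from the median of Meg3, r was -0.331 for Meg3 with Rian and -0.335 for Meg3 with Mirg, so the sign rests on them. Leaving out replicate 3 alone gave -0.147 and -0.335.

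Other genes of the Dlk1-Dio3 region were measured with them. Dlk1, the paternally expressed growth regulator of the region, was at 21.1 ± 3.0 CPM in WT (SD, n = 3), 12.3 ± 4.67 in 5xFAD, 9.80 ± 3.93 in p75NTRko and 11.8 ± 2.16 in 5xFAD/p75NTRko. All 3 WT libraries (19.1 to 24.5 CPM) lie above the other 9 (5.93 to 16.9 CPM), and the log2 fold change in p75NTRko against WT was -1.12 (SE 0.286, edgeR adjusted p = 0.238), which passed with DESeq2 (0.0482). AF357355, a small nucleolar RNA that RefSeq places within the Rian gene, was at 1.79, 0.325 and 2.32 CPM in WT and 6.45, 5.82 and 3.58 in 5xFAD. In p75NTRko it was at 2.60, 1.84 and 1.93 CPM, and in 5xFAD/p75NTRko at 3.83, 4.29 and 5.41. Its 6 libraries with the transgenes lie above the 6 without, unlike those of Rian, whose span holds it. Against WT, 5xFAD stood at 1.83 on the log2 scale (SE 0.441, edgeR adjusted p = 0.150), and 5xFAD/p75NTRko at 1.59 (adjusted p = 0.372) with 1.08 between 5xFAD/p75NTRko and p75NTRko (adjusted p = 0.713). These levels rest on 2 to 38 counts per library. How many of all tested genes split these 6 and 6 libraries without overlap was not counted. The same libraries also differ without overlap in the percent of all reads outside annotated features. Share and transgene therefore cannot be told apart for AF357355.

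Snhg14 lies on the minus strand of chromosome 7 (59307924 to 59975759), where 208 annotated small nucleolar RNAs fall in its span. It was at 25.3, 22.6 and 29.4 CPM in WT and at 47.0, 35.1 and 36.4 in 5xFAD. In the libraries labelled p75NTRko it was at 36.3, 31.0 and 37.5 CPM, and in 5xFAD/p75NTRko at 32.1, 40.9 and 28.2. Every 5xFAD and p75NTRko library lies above every WT library, whereas 5xFAD/p75NTRko overlaps WT. The log2 fold change against WT was 0.62 in 5xFAD (SE 0.164, edgeR adjusted p = 0.189), 0.45 in p75NTRko (SE 0.165, adjusted p = 0.364) and 0.39 in 5xFAD/p75NTRko (SE 0.164, adjusted p = 0.490). The interaction stood at -0.68 (SE 0.231, edgeR adjusted p = 0.415). Exons of Snhg14 and of Ube3a, the ubiquitin ligase gene on the opposite strand, share 1803 bases. Whether the counting used strand is not given in the sources used here, so how reads on these bases were counted is not known. Whether either count holds reads of the other gene was not tested. Ube3a was at 151 ± 19.98 CPM in WT (SD, n = 3), 194 ± 8.73 in 5xFAD, 180 ± 6.38 in p75NTRko and 181 ± 12.3 in 5xFAD/p75NTRko. Its log2 fold change in 5xFAD against WT was 0.36 (SE 0.101, edgeR adjusted p = 0.216), and all 9 libraries of the other genotypes (167 to 203 CPM) exceed those of WT (128 to 163 CPM).

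Peg13 is a single exon of 4725 bases on the minus strand of chromosome 15 (72805600 to 72810324), annotated inside an intron of Trappc9. It was at 363, 387 and 294 CPM in WT, and at 231, 271 and 284 in 5xFAD. In p75NTRko it was at 260, 259 and 253 CPM, and in 5xFAD/p75NTRko at 297, 211 and 362. WT lies above 5xFAD and p75NTRko without overlap, and 5xFAD/p75NTRko overlaps all of them. The log2 fold change against WT was -0.41 in 5xFAD (SE 0.157, edgeR adjusted p = 0.304) and -0.44 in p75NTRko (SE 0.157, adjusted p = 0.355), with an interaction of 0.58 (SE 0.222, adjusted p = 0.480). Trappc9, the trafficking gene that holds it, was at 31.1 ± 3.30 CPM in WT (SD, n = 3) and at 30.9 ± 0.934 in 5xFAD, with 28.6 ± 0.829 in p75NTRko and 29.2 ± 3.57 in 5xFAD/p75NTRko.

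Snhg11, on the plus strand of chromosome 2 (158375638 to 158386145), is typed as protein coding by GENCODE M21 although it is named as a host gene. It was at 1798, 1745 and 1466 CPM in WT, and 1714, 1726 and 1534 in 5xFAD. Libraries labelled p75NTRko held 1300, 1376 and 1291 CPM, and the combined genotype 1396, 1487 and 1929. The p75NTRko libraries lie below all others. The log2 fold change was -0.34 in p75NTRko against WT (SE 0.119, edgeR adjusted p = 0.347) and 0.28 in 5xFAD/p75NTRko against p75NTRko (SE 0.119, adjusted p = 0.747). Slc32a1, the vesicular transporter of GABA, starts 232 kb from Snhg11 in the RefSeq table, by the lower coordinates of both. It was at 279 ± 7.66 CPM in WT (SD, n = 3), 217 ± 19.8 in 5xFAD, 213 ± 6.55 in p75NTRko and 236 ± 14.5 in 5xFAD/p75NTRko. Its log2 fold change was -0.39 in p75NTRko against WT (SE 0.0872, edgeR adjusted p = 0.171) and -0.37 in 5xFAD against WT (SE 0.0872, adjusted p = 0.150). DESeq2 called both, with adjusted p of 0.0131 and 0.0157.

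Miat, on the minus strand of chromosome 5 (112213228 to 112229395), had the smallest range over the 12 libraries, 0.48 on the log2 scale. It was at 247, 291 and 226 CPM in WT, and 239, 244 and 241 in 5xFAD. Libraries labelled p75NTRko held 226, 244 and 248 CPM, and the combined genotype 210, 261 and 292. All genotypes overlap, and the test of any difference gave an edgeR adjusted p of 0.919.

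Some marker sums of tissue next to the hippocampus, and of cell types, did not overlap between some genotypes. Of 8 striatal markers 7 were tested, and 1, Drd2, is listed at 0 in every library. Their summed level was 183 to 252 CPM in WT, 132 to 156 in 5xFAD, 134 to 144 in p75NTRko and 108 to 165 in 5xFAD/p75NTRko. The 9 thalamic and habenular markers, none at 0, summed to 496 to 740 CPM in WT, 322 to 377 in 5xFAD, 278 to 329 in p75NTRko and 259 to 869 in 5xFAD/p75NTRko. The 9 choroid plexus markers, none at 0, summed to 2393 to 5895 CPM in WT, 317 to 1917 in 5xFAD, 4403 to 7206 in the libraries labelled p75NTRko and 174 to 7156 in the combined genotype. Striatal sums were thus higher in WT than in any other genotype without overlap. Thalamic sums of WT exceeded those of 5xFAD and p75NTRko but not that of 1 library of 5xFAD/p75NTRko, and choroid plexus sums of 5xFAD lay below those of WT. The 8 hippocampal markers went the other way, with 580 to 637 CPM in WT, below 656 to 752 in 5xFAD and 687 to 741 in p75NTRko, and with 620 to 696 in 5xFAD/p75NTRko. Oligodendrocyte markers (8 genes, none at 0) summed to 3871 to 6820 CPM in WT, 5080 to 7331 in 5xFAD, 6095 to 7417 in p75NTRko and 3922 to 5091 in 5xFAD/p75NTRko. Sums of neuronal, astrocyte, microglial, endothelial and oligodendrocyte precursor markers overlapped between all genotypes. Taken singly, 0 genes of these lists passed the adjusted edgeR threshold in a genotype comparison. Of all tested genes, 19.6% did not overlap in 5xFAD against WT and 16.4% in p75NTRko against WT. The part of these tissues and cells in the differences above was not tested.

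Counted over the list, 0 of 9 RNAs passed the adjusted threshold in any comparison. The percent of all tested genes that passed was 0.0536% for 5xFAD against WT, 0% for p75NTRko against WT, and for 5xFAD/p75NTRko it was 0.0383% when set against 5xFAD, 0% against p75NTRko and 0% against WT. It was 0.0383% for the interaction and 0.0995% for any difference among genotypes. At an unadjusted edgeR p under 0.05 there were 4 of 9 members in 5xFAD against WT, where 13.9% of all genes passed. There were 5 in p75NTRko against WT (11.5% of all genes), and for 5xFAD/p75NTRko there was 1 when set against 5xFAD (5.08%), with 2 against p75NTRko (6.59%) and 1 against WT (9.95%). The interaction had 3 (9.32% of all genes) and the test of any difference 5 (10.4%). Libraries did not overlap for 4 members in 5xFAD against WT, where 19.6% of all genes did not overlap, and for 4 in p75NTRko against WT (16.4%). For 5xFAD/p75NTRko it was 1 when set against 5xFAD (11.2%), with 2 against p75NTRko (12.3%) and 1 against WT (11.5%). DESeq2 on the same genes called Malat1 in 5xFAD against WT, in 5xFAD/p75NTRko against 5xFAD and in the interaction, Meg3 in 5xFAD/p75NTRko against p75NTRko, and both in the test of any difference. These comparisons share libraries and are not independent. The median log2 fold change of the 9 was -0.01 in 5xFAD against WT (all genes -0.0036) and -0.26 in p75NTRko against WT (all genes -0.00063). It was -0.06 in 5xFAD/p75NTRko against 5xFAD (all genes 0.01), 0.09 against p75NTRko (all genes 0.01) and -0.06 against WT (all genes 0.0042).

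**Figure D2:**
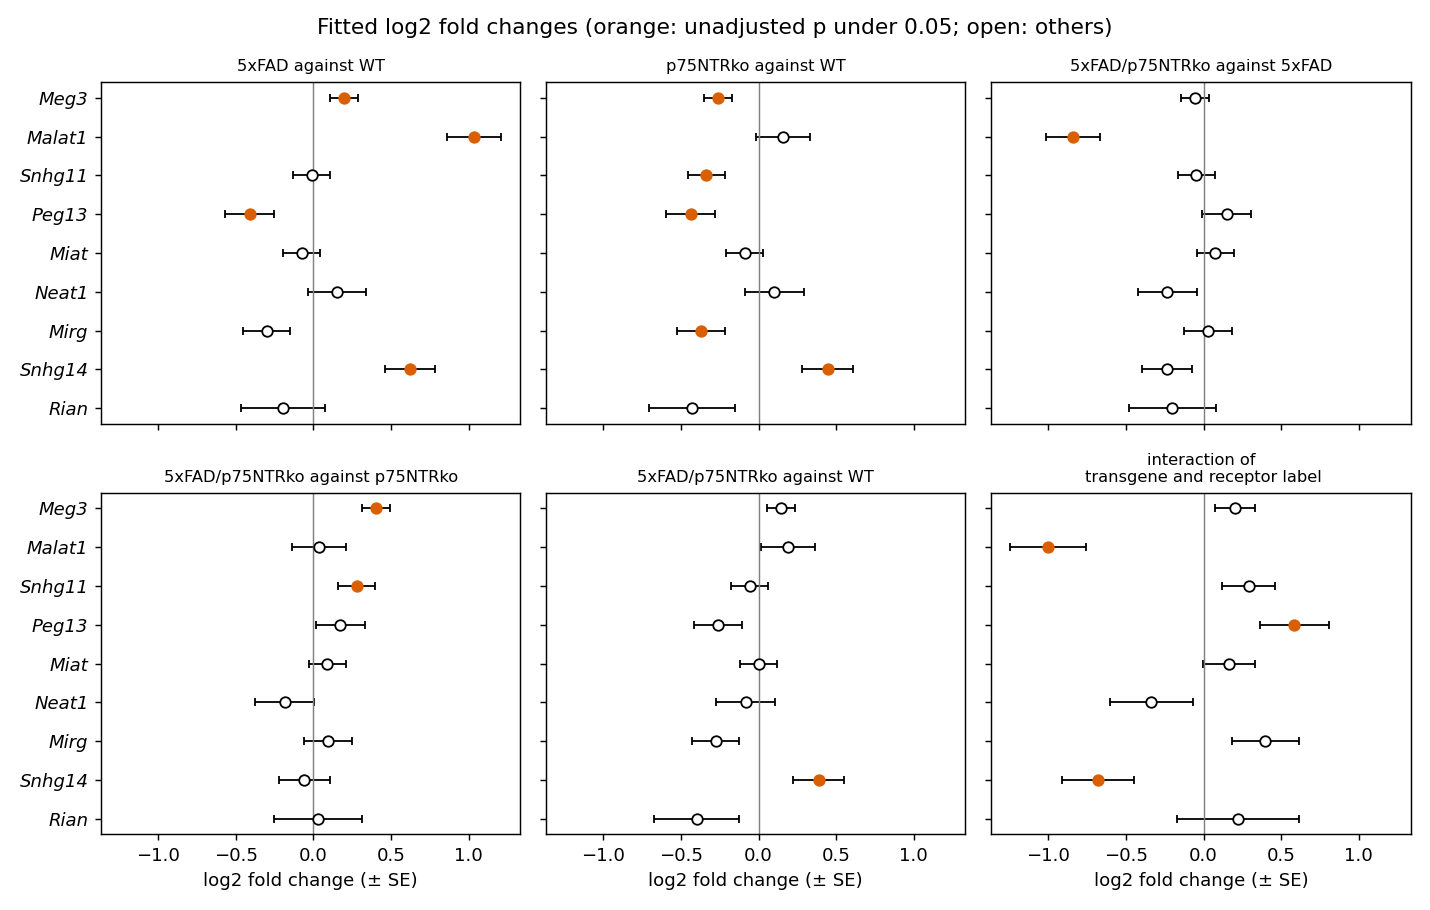
Fitted log2 fold change (horizontal axis, with whiskers of 1 SE) of the 9 RNAs (vertical axis) in 5 genotype comparisons and the interaction; filled orange points have an unadjusted edgeR p under 0.05. Malat1 in 5xFAD against WT, at 1.04, lies farthest above 0, and no point passed the adjusted threshold.

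Reads outside annotated features can come from introns, unannotated transcript ends or genes missing from the annotation. They took 28.9% to 31.1% of reads in WT, 32.7% to 33.0% in 5xFAD, 30.9% to 31.3% in p75NTRko and 32.4% to 33.5% in 5xFAD/p75NTRko. Whether reads of mitochondrially encoded genes were among them was not tested. The 6 libraries with the transgenes (mean 32.9% ± 0.375, SD) lie above the 6 without (30.5% ± 0.979), with p = 0.00216 in an exact two-sided permutation test over 924 assignments. As a percent of uniquely aligned reads the ranges overlap (45.5% to 50.5% against 44.2% to 46.9%, exact permutation p = 0.00866). As a percent of all reads the share was alike in 5xFAD and 5xFAD/p75NTRko, and Malat1 stood at means of 4625 and 2577 CPM there. By the other denominator 5xFAD was at 49.2% to 50.5% and 5xFAD/p75NTRko at 45.5% to 49.3%. The library at 45.5%, 5xFAD/p75NTRko replicate 3, also had the least Malat1 of all libraries (1759 CPM). Whether the share accounts for the Malat1 levels was not tested.

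Across the 12 libraries Snhg14 had the largest Pearson's r with the share (r = 0.735, permutation p = 0.00639, adjusted over the 9 RNAs 0.0575; Spearman's rho = 0.650, permutation p = 0.0263). Without WT replicates 1 and 2, the libraries farthest from the median share, r was 0.379, so the relation rests on them. Malat1 had r = 0.598 (permutation p = 0.0422, adjusted 0.127) and rho = 0.727 (permutation p = 0.00970, adjusted 0.0873), with r = 0.537 without those libraries. With the share taken of uniquely aligned reads, Malat1 had r = 0.873 (permutation test, adjusted p = 0.000540), the one relation of the 9 that passed there. Peg13 had r = -0.605 (permutation p = 0.0377, adjusted 0.127) and rho = -0.455 (permutation p = 0.139), with r = -0.132 without them, so that relation rests on them too. Within the 6 libraries that lack the transgenes r was 0.892 for Snhg14, 0.456 for Malat1 and -0.936 for Peg13. Within the 6 that carry them it was 0.475, 0.356 and -0.750. The 6 without are the WT and p75NTRko libraries, which do not overlap in Snhg14 or Peg13 and include WT replicates 1 and 2. Both sets thus mix differences between genotypes with those within them. For deviations from genotype means over the 12 libraries, r was 0.648 for Snhg14, 0.464 for Malat1 and -0.714 for Peg13.

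In a model with a mean for each genotype, the slope on the share passed the adjusted threshold for 4.66% of all genes and for 0 of 9 members. At an unadjusted p under 0.05 it held for 21.1% of all genes and 4 members. Peg13 changed by a log2 value of -0.25 per percentage point (SE 0.0777, edgeR adjusted p = 0.0717), Snhg11 by -0.17 (SE 0.0620, adjusted p = 0.119), Snhg14 by 0.21 (SE 0.0941, adjusted p = 0.202) and Miat by -0.14 (SE 0.0653, adjusted p = 0.222). Malat1 stood at 0.17 (SE 0.09996, adjusted p = 0.356). Its slope passed without WT replicate 2, at 0.48 (edgeR adjusted p = 0.00968), and with the share of uniquely aligned reads (adjusted p = 0.0287). The Peg13 slope passed with no filter on low counts (edgeR adjusted p = 0.0335) and with the replicate block (0.0237). With the share as a term, Malat1 in 5xFAD against WT had a log2 fold change of 0.53 (edgeR adjusted p = 0.649), and Snhg14 in the same comparison had -0.0018 (adjusted p = 0.999). In that fit 3 more estimates changed sign, to 0.35 for Peg13 and -0.0065 for Ube3a in 5xFAD against WT, and to -0.27 for Snhg14 in 5xFAD/p75NTRko against WT. The shares of carriers (32.4% to 33.5%) and of the other libraries (28.9% to 31.3%) do not overlap. Share and transgene therefore cannot be told apart in these estimates. Of the other long noncoding RNAs, Snhg6 rose with the share (slope 1.05, SE 0.127, edgeR adjusted p = 0.00187), as did Snhg8 (slope 0.40, SE 0.0733, adjusted p = 0.0117), both host genes of small nucleolar RNAs. Neither held when the share was taken of uniquely aligned reads or without WT replicate 3. Snhg8 was also lost without WT replicate 2 and with no genotype term. The paraspeckle protein Matr3 had a slope of 0.21 (edgeR adjusted p = 0.0481), which passed in 7 of 19 alternatives.

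**Figure D3:**
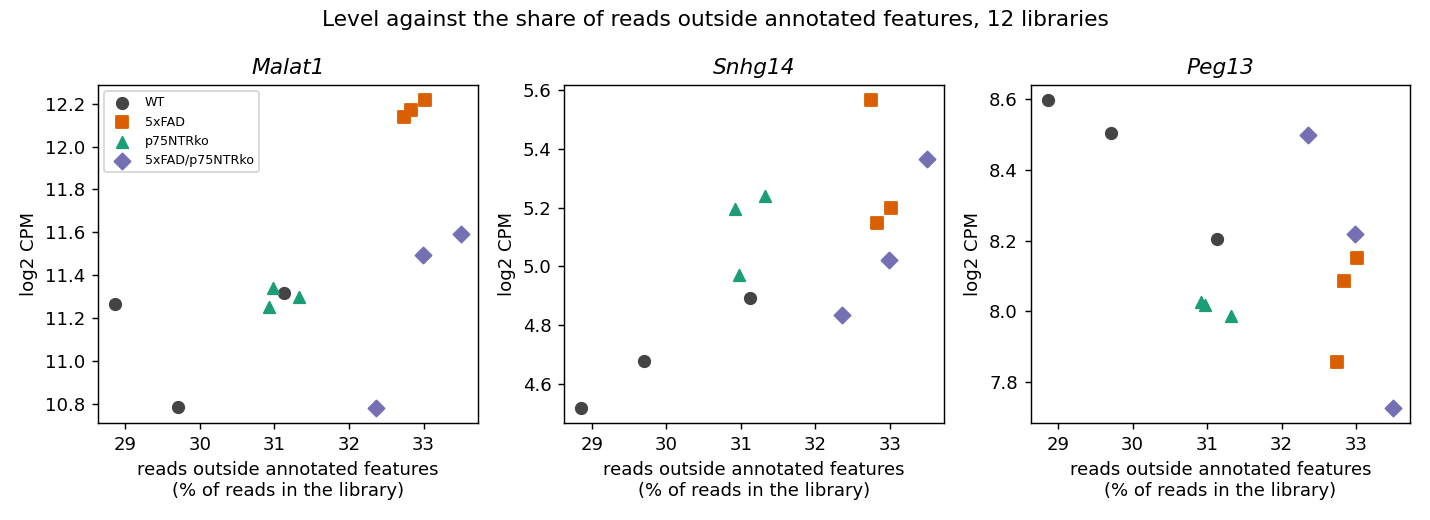
Level of Malat1, Snhg14 and Peg13 (vertical axes, log2 CPM) against the percent of reads outside annotated features (horizontal axes) in the 12 libraries, by genotype. For Malat1 the 3 5xFAD libraries stand above the 5xFAD/p75NTRko libraries at similar shares of all reads (32.7% to 33.0% and 32.4% to 33.5%). As a percent of uniquely aligned reads, not plotted, their shares were 49.2% to 50.5% and 45.5% to 49.3%.

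Over the 36 pairs of the 9 RNAs, 1 correlation of log2 CPM passed adjustment over the pairs. Snhg14 and Peg13 ran opposite to each other, with Pearson's r = -0.909 (permutation p = 4.0e-05, adjusted 0.00144) and Spearman's rho = -0.888 (permutation p = 0.000290, adjusted 0.0104). Without the 2 libraries farthest from the median of Snhg14 (5xFAD replicate 1 and WT replicate 2) r was -0.882, and for deviations from the genotype means it was -0.894. In WT, the library with the most Peg13 (387 CPM) had the least Snhg14 (22.6 CPM). In 5xFAD/p75NTRko, replicate 2 had the least Peg13 (211 CPM) and the most Snhg14 (40.9 CPM). The relation passed in all 13 alternatives, with r between -0.938 and -0.872. Both are imprinted, paternally expressed RNAs on different chromosomes. Among the 13064 other tested genes Snhg14 ranked 10 by the most negative r with Peg13, and Peg13 ranked 6 for Snhg14. CPM values are shares of one total and these levels also move with the share of reads outside features, and that part was not tested.

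The next closest pairs did not pass adjustment. Rian and Peg13 had r = 0.776 (permutation p = 0.00312, adjusted 0.0562) and rho = 0.748, with r = 0.665 without the 2 farthest libraries. Meg3 and Snhg11 had r = 0.717 (permutation p = 0.00952, adjusted 0.114) and rho = 0.720, with r = 0.567 without them. Malat1 and Snhg14 had r = 0.662 (permutation p = 0.0189, adjusted 0.170) and rho = 0.622, with r = 0.747 without them. In all, 22 of the 36 pairs had a positive r.

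**Figure D4:**
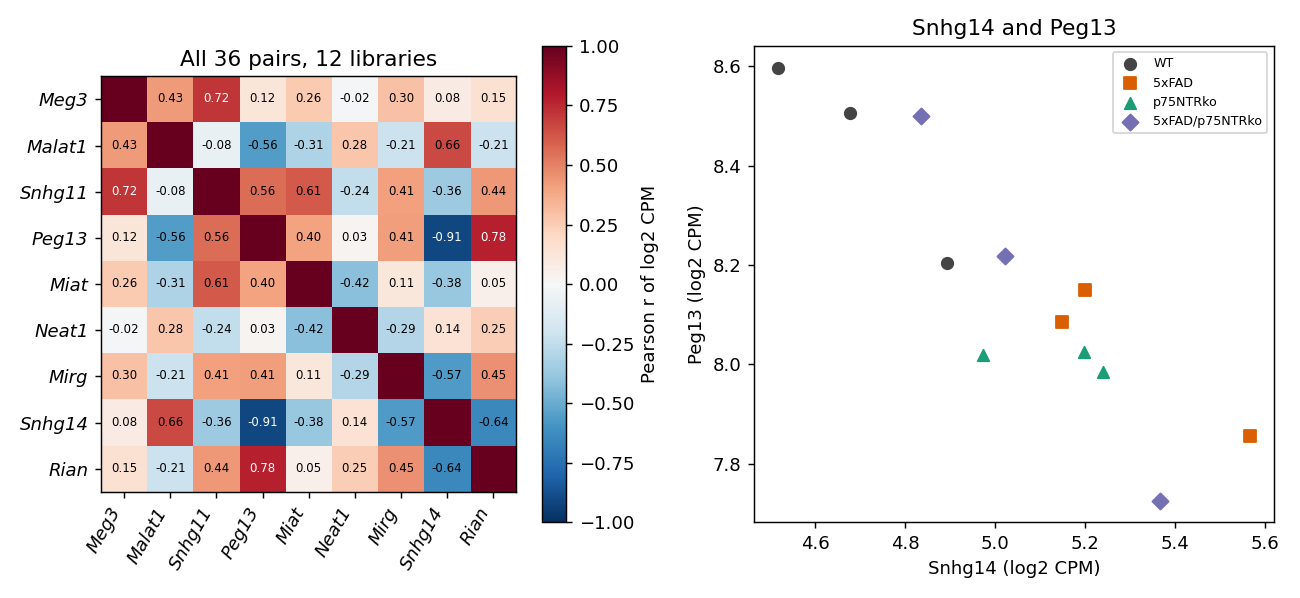
Left, Pearson's r of log2 CPM over 12 libraries for all 36 pairs of the 9 RNAs (colour scale from -1 to 1, values printed); right, Peg13 against Snhg14 (log2 CPM), 1 point per library, by genotype. The points fall from upper left to lower right, with r = -0.909.

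The tested genes most like each RNA over the 12 libraries, by Pearson's r of log2 CPM, are given as a description. Malat1 was most like Usp9x (r = 0.975), an X-linked deubiquitinase gene, and Cacna1e (r = 0.944), a calcium channel subunit. Usp9x was at 13.4 ± 2.48 CPM in WT (SD, n = 3), 24.8 ± 0.433 in 5xFAD, 14.7 ± 0.618 in p75NTRko and 13.6 ± 2.34 in 5xFAD/p75NTRko. Cacna1e was also highest in 5xFAD, at 33.9 ± 3.43 CPM (SD, n = 3) beside means of 18.8 to 21.7 in the others. Meg3 was most like Uqcc1 (r = 0.898), an assembly factor of respiratory complex III, and Ttc3 (r = 0.880). Snhg14 was most like Ccnl1 (r = 0.943), a cyclin linked to splicing, and the unnamed gene 9530059O14Rik (r = 0.940). Peg13 was most like Strbp (r = 0.957), an RNA-binding protein, and Zmat4 (r = 0.953). Snhg11 was most like Meis2 (r = 0.926), a homeobox gene, and Rufy3 (r = 0.916), and Miat was most like Arpc5l (r = 0.952) and Spata2 (r = 0.938). Rian was most like Ciz1 (r = 0.948) and Gorasp1 (r = 0.910), Mirg like Plxnc1 (r = 0.842) and Cbr3 (r = 0.836), and Neat1 like Sept8 (r = 0.894) and Gsap (r = 0.873).

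The remaining lists gave no adjusted call in a genotype comparison. Of 13 imprinted protein-coding genes at the loci of the 9 RNAs, 8 were tested, and in 5xFAD against WT 2 of 8 had a positive log2 fold change (median -0.13, all genes -0.0036). Of 31 other long noncoding RNAs, 24 were tested, with medians of 0.08 in 5xFAD against WT and 0.15 in p75NTRko against WT. Snhg20, a host gene of a small nucleolar RNA, had the smallest p of that list, at -0.48 in 5xFAD/p75NTRko against WT (SE 0.113, edgeR adjusted p = 0.242). Sox2ot, which overlaps the neural factor gene Sox2, was at -0.39 in 5xFAD/p75NTRko against p75NTRko (SE 0.106, edgeR adjusted p = 0.552). Genes starting within 250 kb of a member numbered 1 to 21 per member, and 0 passed the adjusted threshold. Besides AF357355, Dlk1, Slc32a1 and Ube3a, neighbours at an unadjusted p under 0.05 included Ehbp1l1, Kat5 and Cdc42ep2 near Malat1 and Neat1, Tpst2 and Sez6l near Miat, and Lbp near Snhg11.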

How the data were processed

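RNA of 12 mouse hippocampi (RNA integrity number above 7) was made into 3′ mRNA libraries with 14 amplification cycles, per the labels' protocols, and all libraries carry 1 batch label. The deposited values are unnormalized whole-number counts under gene symbols, with a column for each library, and columns of other samples numbered 0. The submitters' processing notes name FastQC, HISAT2, SAMtools, HTSeq, edgeR and build mm10; which annotation was counted, and whether by strand, is not given in the sources used here. The 5 summary lines of the table entered neither library sizes nor tests, and reads outside features took 28.9% to 33.5% of reads. The replicates are labelled biological, and nothing says how they were matched across genotypes.

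Counts of all 12 libraries were fitted with edgeR 4.0.16 under R 4.3.3. After filterByExpr and TMM scaling (factors of 0.975 to 1.03), quasi-likelihood tests used a mean for each genotype. P-values of 13065 genes were adjusted by Benjamini-Hochberg, with calls under 0.05. CPM use TMM-scaled sizes, and log2 CPM a prior count of 2. The slope on the share of reads outside features kept the genotype means. Correlations were tested by permutation with 100000 resamples in numpy 2.4.6, with ranks from scipy 1.17.1. An exact permutation test of 1 gene, 3 libraries against 3, cannot go below p = 0.1, so calls rest on the model across genes, and p-values measure the spread between these libraries. Reads carry no molecular identifiers. The procedure was tested on simulated data. Positions come from GENCODE M21 and RefSeq (GRCm38), and multiply aligned reads are not in the gene counts.

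The members, the lists and the tests were chosen with earlier results of these data known. Named beside the 9 RNAs are the 2 genes most like each by r, from 4 related lists those past the threshold or with the 2 smallest p, and genes within 250 kb at an unadjusted p under 0.05. AF357355, Slc32a1, Matr3, Snhg6 and Snhg8 fall under that rule; Ngfr, Thy1, Xist, Trappc9 and Drd2 were named as checks. One gene under the rule is not reported here. Alternatives were DESeq2 1.42.0, other scalings and filters, a replicate block, added terms, fewer genes or libraries, and another denominator of the share.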

Additional observations from a re-analysis of the deposited data

How the results depend on the processing

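Estimates of the 9 RNAs and the other named genes were recomputed under alternatives, giving 962 values: 904 kept their direction and side of the threshold, 34 came to pass it, 18 no longer passed and 6 changed sign. The 18 all concern the slopes of Matr3, Snhg6 and Snhg8. With the share of reads outside features as a term, Snhg14 in 5xFAD against WT was -0.0018, Peg13 0.35 and Ube3a -0.0065, and Snhg14 in 5xFAD/p75NTRko against WT was -0.27. Share and transgene cannot be told apart in that fit. Leaving out 1 library at a time, r was -0.147 to 0.328 for Meg3 with Rian and -0.335 to 0.396 for Meg3 with Mirg, both lowest without p75NTRko replicate 3. A further 42 estimates of members, not given as fold changes, changed sign in 58 of 713 values and passed in 0.

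Counts of called genes depend strongly on the processing. In the order 5xFAD and p75NTRko each against WT, 5xFAD/p75NTRko against each of 5xFAD, p75NTRko and WT, the interaction, and any difference, edgeR called 7, 0, 5, 0, 0, 5 and 13, and DESeq2 called 98, 55, 20, 19, 30, 25 and 181. With no filter on low counts the calls were 44, 46, 14, 6, 16, 15 and 81. With the share as a term they were 0, 0, 9, 232, 0, 3 and 52, and with the Xist class as a term 0, 1, 0, 1, 0, 1 and 4. Without genes on X and Y they were 1, 0, 1, 0, 0, 0 and 7. Only the compared genotypes gave 19, 21, 9, 0 and 1 for the 5 comparisons. With a mean of at least 50 counts, 5xFAD/p75NTRko against 5xFAD had 1 and the interaction 3, and with library sizes that include reads outside features the former had 0. The slope called 609 genes, and 931 with no filter, 403 with no genotype term and 155 with the share of uniquely aligned reads. Leaving out 1 library at a time gave 1 to 57 in 5xFAD against WT, 0 to 26 in p75NTRko against WT, 0 to 7, 0 to 25 and 0 to 4 in 5xFAD/p75NTRko against 5xFAD, p75NTRko and WT, 3 to 20 for the interaction, 1 to 53 for any difference and 17 to 969 for the slope. It left 1 to 2 pairs of members and 0 to 3 relations with the share past adjustment (1 and 0 with all libraries; these leave-one-out correlations were chosen after seeing the data). Library sizes that include reads outside features gave 2 pairs, and the share of uniquely aligned reads gave 1 relation (Malat1). The cause was not tested.

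Deviations of same-numbered libraries from their genotype means had r of -0.424 to 0.145, with 2 of 18 over 0.1. Those of libraries with other numbers had r of -0.220 to 0.341, with 8 of 36 over 0.1. No pairing by replicate number was seen in this way, which cannot show that the libraries were unpaired. With the replicate block the calls were 1, 0, 0, 0, 0, 3 and 4, Malat1 in 5xFAD against WT had an adjusted p of 0.113, and Peg13 passed for the slope (adjusted p = 0.0237).

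Rian had the fewest counts of the 9, at 31 to 99 per library.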
